A study of Mus musculus with 3 samples.

Results

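Expression of 10 genes that organize the folded genome was examined in CD4+ CD8+ double-positive (DP) thymocytes of the mouse, T cell precursors that display CD4 and CD8 together. They are Satb1 and Bcl11b, which encode DNA-binding organizers of the T lineage, Ctcf, which encodes the zinc finger protein found at loop anchors, and 7 genes of the cohesin system, namely Rad21, Smc1a, Smc3, Stag1, Stag2, Nipbl and Pds5a. They were chosen by gene symbol, and each of the 10 had exactly 1 probe set with its own symbol, among 19938 genes with such a probe set. RNA came from bead-sorted DP cells (CD8 first, then CD4) of wild-type C57BL/6 mice aged 5 to 6 weeks. The 3 samples are cohorts of littermates, which the labels treat as biological replicates, and how many animals each array reads is not stated there. There is 1 group and no untreated, mutant or sorted counterpart, so the values describe DP cells and the spread between cohorts, not a response. The arrays belong to a project that also mapped E47 in DP cells, and Ets1, Runx1 and histone marks in Rag2-deficient thymocytes. Those maps were not analysed here.

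Cohesin is a ring of the SMC proteins Smc1a and Smc3, closed by the kleisin Rad21 and bound by either Stag1 or Stag2. Nipbl loads the ring onto chromatin and drives it to extrude loops, Pds5 proteins and Wapl limit how long it stays, and CTCF bound to DNA in the right orientation halts it, which sets the ends of many loops. In thymocytes this machinery is known for its part in gathering distant antigen receptor gene segments, whereas SATB1 is known as an abundant thymocyte protein that binds base-unpairing regions, and BCL11B as a zinc finger factor needed for commitment to the T lineage.

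The RefSeq promoter table (GRCm38.p6) held windows for 7 of the 10 members. Nipbl, Rad21 and Stag2 had no entry. The windows below show how far promoter composition differed within the list. They run 5′ to 3′ on the gene's strand, hold only bases before the annotated gene, and carry each CpG in capitals. The windows are chr17:51833291-51833540 (minus strand) for the most upstream of the 5 Satb1 starts, chr8:105636288-105636473 (plus strand) for Ctcf, chrX:152016178-152016427 (plus strand) for Smc1a and chr19:53600146-53600395 (plus strand) for Smc3.
Satb1: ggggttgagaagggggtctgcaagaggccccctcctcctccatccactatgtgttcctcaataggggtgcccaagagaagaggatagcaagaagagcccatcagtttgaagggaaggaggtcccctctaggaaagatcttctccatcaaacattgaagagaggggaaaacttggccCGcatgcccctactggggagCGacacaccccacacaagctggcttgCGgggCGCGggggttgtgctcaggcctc
Ctcf: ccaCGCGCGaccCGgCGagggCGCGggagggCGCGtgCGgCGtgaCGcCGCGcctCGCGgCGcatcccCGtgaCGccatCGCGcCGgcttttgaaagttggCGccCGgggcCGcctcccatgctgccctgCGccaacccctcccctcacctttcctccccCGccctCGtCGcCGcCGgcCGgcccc
Smc1a: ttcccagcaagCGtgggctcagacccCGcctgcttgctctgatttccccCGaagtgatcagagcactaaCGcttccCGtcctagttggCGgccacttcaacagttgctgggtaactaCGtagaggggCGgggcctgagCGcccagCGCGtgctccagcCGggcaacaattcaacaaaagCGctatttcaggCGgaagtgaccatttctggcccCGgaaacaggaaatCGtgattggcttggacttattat
Smc3: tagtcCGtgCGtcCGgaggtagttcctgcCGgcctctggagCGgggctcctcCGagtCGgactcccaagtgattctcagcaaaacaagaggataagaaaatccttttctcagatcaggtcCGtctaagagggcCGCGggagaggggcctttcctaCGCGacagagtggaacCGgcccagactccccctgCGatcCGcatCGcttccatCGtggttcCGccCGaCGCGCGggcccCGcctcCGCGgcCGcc

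The Satb1 window held 5 CpGs in 250 bases, the Smc1a window 16 and the Smc3 window 26, while the shorter Ctcf stretch of 186 bases held 32. Over the 250 bases before the start, the ratio of observed to expected CpG was 0.24 for Satb1, 0.72 for Bcl11b, 0.79 for Smc1a, 0.98 for Stag1, 1.01 for Smc3, 1.09 for Pds5a and 1.13 for Ctcf. The windows of Bcl11b and Stag1 lay wholly within the annotated span of their genes, and that of Ctcf lay there in part. These ratios thus belong to the start that has a window, not to the bases before the gene. A ratio near 1 means that CpG is as frequent as its C and G content predicts, as in CpG islands. The value for Satb1 held for that start alone: its other 4 windows had 0.15, 0.52, 0.69 and 1.05, and the arrays do not tell which start the DP cells used. Among 15614 genes with both a window and a probe set, the median ratio was 0.78 for the 6672 genes above background on all arrays and 0.34 for the 8942 others. Smc1a, at 0.79, was close to the median of the genes above background, Stag1, Smc3, Pds5a and Ctcf were higher, and Bcl11b and the most upstream start of Satb1 were lower.

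**Figure D1:**
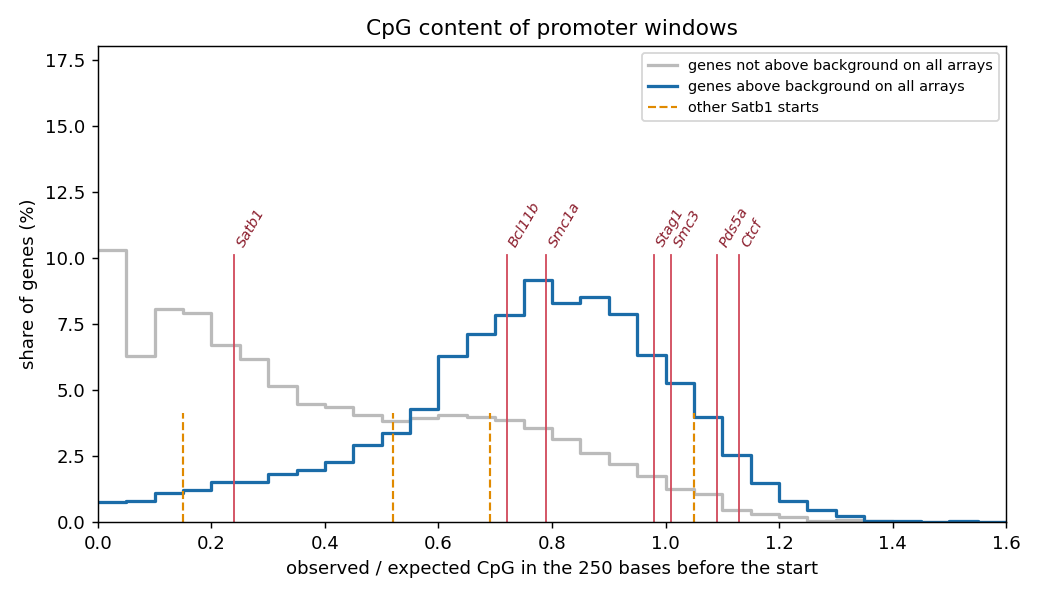
Distribution of the observed to expected CpG ratio (x axis) in the 250 bases before the most upstream start that has a window, as the share of genes in percent (y axis), for genes above background on all 3 arrays (blue) and the others (grey), with the 7 members that have a window as red lines and the other Satb1 starts as dashed lines. The windows of Bcl11b and Stag1 lie within the annotated genes. Satb1 stands at 0.24 for its most upstream start, and Ctcf at 1.13 is farthest to the right.

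Exact matches to short motifs were counted in these windows, for the factors the project mapped and for CTCF. CCGGAA, 1 form of the ETS motif, was searched on both strands and occurred once, in Smc1a, from 38 to 33 bases before the start. Only this hexamer was counted, and other GGAA stretches in the Smc1a window above were not. The hexamer was found in 12.0% of all 32851 windows of that length and in 26.7% of the genes above background. The RUNX motif TGTGGT, in 14.0% of windows and 10.3% of the genes above background, matched none of the 7. The E-boxes CAGCTG and CAGGTG, in 13.0% and 17.2% of windows and 10.4% and 14.1% of those genes, also matched none. AGGGGGC, part of the CTCF core, was found in Satb1 alone, from 224 to 218 bases before the start and on the opposite strand. It occurred in 9.4% of all windows and in 15.1% of the genes above background. With only 7 windows, no excess or lack of matches is read from these counts. A match describes letters only, and the binding of these factors was not analysed here.

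All 10 members were expressed on every array. Background was set for each array from 91 probe sets of genes known from other organs, with their 95th percentile as the limit. It stood at 7.36 on array 1, 7.48 on array 2 and 7.40 on array 3 (log2 values, as are all levels here). All 10 members exceeded it on each array, as did 41.1% of all genes. The closest member to its limit, Stag1 on array 2, still exceeded it by 2.75 log2 units, a factor of 6.73. The median over the members was 11.19, 11.20 and 11.25 on arrays 1, 2 and 3, against 6.84, 6.86 and 6.85 over all genes. The signal of a probe set also depends on its probes, so a higher value of 1 member than of another does not show more transcript, and no order of the members is given. As these are bulk samples, fewer cells expressing a gene and less RNA per cell cannot be told apart.

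Among the DNA-binding organizers, Satb1 had 13.55, 13.71 and 13.65 on arrays 1, 2 and 3 (mean 13.64 ± 0.08 SD, n = 3). Array 1 was the lowest, and the whole range of 0.16 log2 units is a factor of 1.12. Bcl11b had 11.60, 11.63 and 11.67 (11.63 ± 0.04, n = 3), so its cohorts differed by a factor of 1.05 at most. Ctcf had 11.15, 11.26 and 11.31 (11.24 ± 0.08, n = 3), again lowest on array 1, with the same range as Satb1.

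The ring subunits also varied little. Smc1a, the ATPase partner of Smc3, had 10.98, 11.08 and 11.04 (11.03 ± 0.05, n = 3). Smc3, which carries the lysines that are acetylated to lock the ring, had 11.22, 11.13 and 11.11 (11.15 ± 0.06, n = 3) and was highest on array 1. Rad21, the kleisin that separase cuts at anaphase, had 12.05, 12.16 and 12.09 (12.10 ± 0.06, n = 3), lowest on array 1. The ranges of these subunits were between 0.10 and 0.11 log2 units.

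The interchangeable STAG subunits, of which a cohesin ring carries either, were both expressed. Stag1 had 10.31, 10.23 and 10.32 (10.29 ± 0.05, n = 3) and Stag2 had 10.44, 10.31 and 10.43 (10.39 ± 0.07, n = 3). Both were lowest on array 2, and their difference hardly moved: Stag2 minus Stag1 was 0.13, 0.08 and 0.11 log2 units on arrays 1, 2 and 3 (SD 0.03). The size of that difference depends on the probes, so only its change between arrays can be read, and that was 0.05 at most. The difference of the SMC partners varied more, with Smc3 minus Smc1a at 0.24, 0.05 and 0.07 (SD 0.10). Without array 1 its mean was 0.06 against 0.12 with all arrays.

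The loader and the release factor among the members had narrow ranges. Nipbl, the loader, had 11.12, 11.14 and 11.19 (11.15 ± 0.04, n = 3). Pds5a, which binds Rad21 and helps both to release the ring and to protect it, had 11.49, 11.44 and 11.47 (11.47 ± 0.03, n = 3), a range of 0.05 log2 units or a factor of 1.04.

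**Figure D2:**
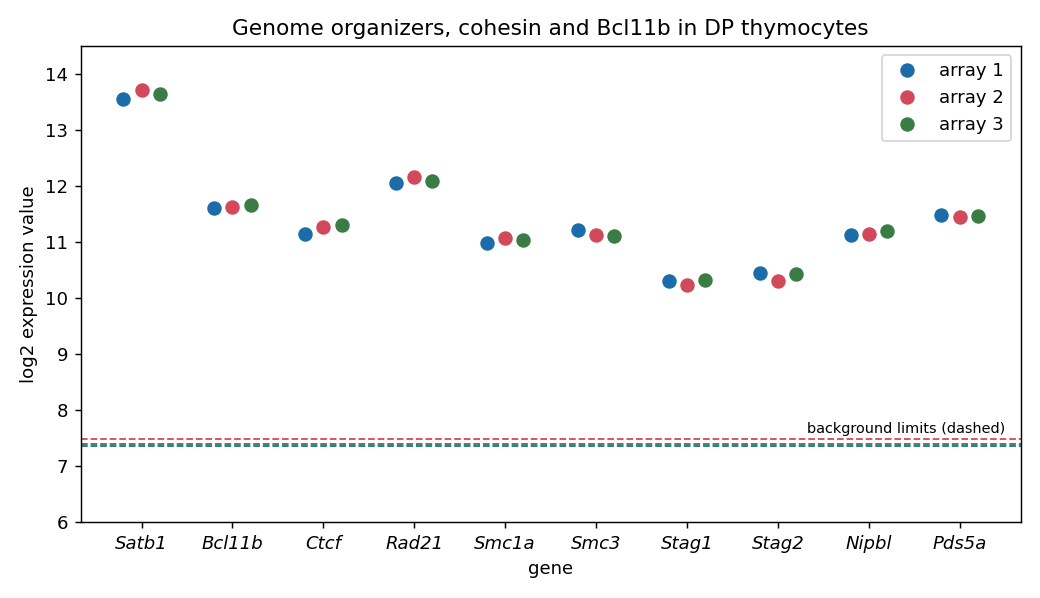
Log2 expression value (y axis) of each of the 10 members (x axis) on arrays 1, 2 and 3 (blue, red and green points), with the background limit of each array as a dashed line of the same colour. Every point lies well above the limits near 7.4, and the points of a gene span 0.16 log2 units at most.

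The spread of the members between cohorts was small or typical for their level. The median SD over the 10 was 0.053, against 0.111 over all genes and 0.089 over the 1279 genes whose means lie in the members' range of 10.29 to 13.64. All 10 members had an SD below that last median. All 10 also lay below the SD that limma's fit across probe sets gives for their level, between 0.09 and 0.10, as did 57.6% of all genes. This count was made after the values had been seen and carries no test. Around each gene's own level, within 0.5 log2 units, the steadiest was Pds5a, since 90.2% of 389 genes had a larger SD, followed by Bcl11b with 85.8% of 303 and Nipbl with 85.6% of 584. Ctcf, with 48.9% of 511, was typical of its level, and Satb1 had only 12 genes that close to it.

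In the limma variance test, which asks whether a probe set varied between cohorts by more than probe sets of its level, 0 of 10 members were called at a Benjamini-Hochberg adjusted p under 0.05, and 0 had an unadjusted p under 0.05. Unadjusted p ran from 0.523 for Satb1 to 0.942 for Pds5a, and adjusted p from 0.989 to 0.999. Over all 28939 probe sets tested, 6 were called (0.0207%). A p that misses the threshold does not show equal expression. Wide ranges also went uncalled with 3 arrays. Gadd45b, an immediate-early gene picked here for its wide range, differed by a factor of 5.17 at an adjusted p of 0.195. What the values themselves bound is the observed range, which was a factor of 1.12 at most for any member.

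**Figure D3:**
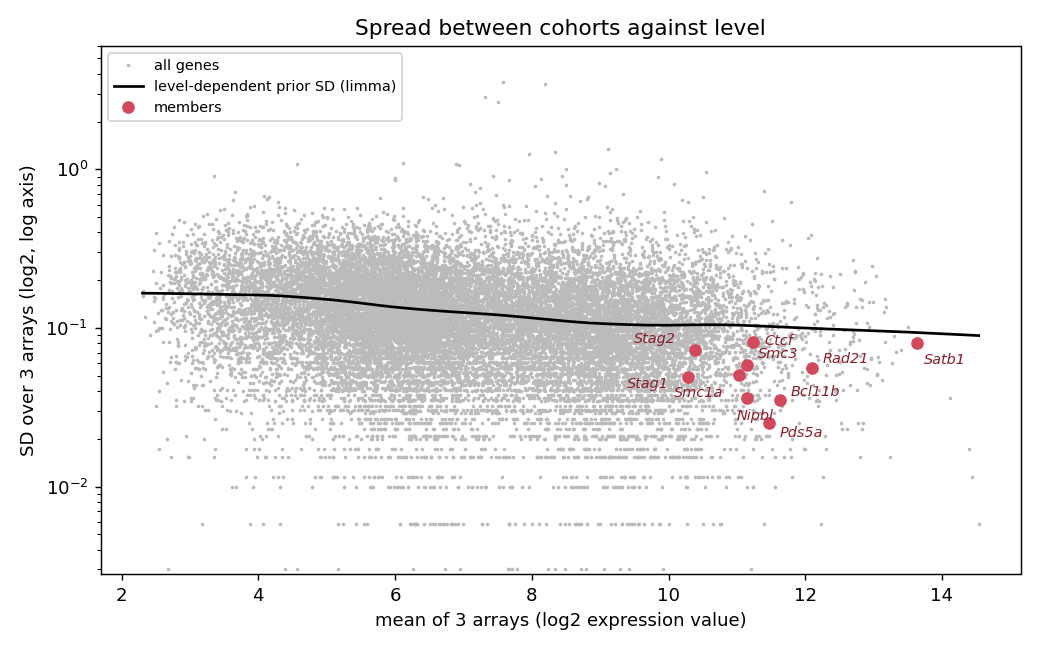
SD over the 3 arrays (y axis, log scale) against the 3-array mean (x axis, log2 expression value) for all 19938 genes (grey, with an SD of 0 drawn at the lower edge), the SD that the limma fit gives for each level (black line) and the 10 members (red, named). The members lie below the line, with Satb1 and Ctcf closest to it and Pds5a, at an SD of 0.03, lowest.

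Array 1 stood apart from the other arrays in other genes, and the members moved little with it. Of the members, 6 were lowest on array 1 (Satb1, Bcl11b, Ctcf, Rad21, Smc1a and Nipbl) and 3 were highest there (Smc3, Stag2 and Pds5a), against 39.3% and 34.5% of all genes. With array 1 set against the mean of arrays 2 and 3, the differences ran from -0.14 for Ctcf and -0.13 for Satb1 to 0.10 for Smc3, with a median of -0.05 over the members and -0.02 over all genes. The sign held for 9 members under quantile normalization and median centring, and that of Pds5a turned under the former, from 0.04 to -0.002. That of Rad21 went from -0.08 to -0.19 under quantile normalization. The median size of this difference, without its sign, was 0.07 for the members and 0.13 for the genes at their levels.

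For scale, 10 immediate-early genes, which respond to stimuli within minutes, deviated on average by 0.93, -0.51 and -0.42 log2 units from their means on arrays 1, 2 and 3. All 10 were highest on array 1, against 34.5% of all genes, and their summed linear signal was 16382, 6274 and 6694. Even so, the limma variance test called 0 of these 10, and 8 had an unadjusted p under 0.05. The 7 DP markers, Cd4, Cd8a, Cd8b1, Rag1, Dntt, Ptcra and Cd3e, lay above background on every array, against 41.1% of all genes. They had mean deviations of -0.11, 0.07 and 0.04 and a summed linear signal of 36631, 41871 and 41510. All but Cd3e were lowest on array 1, against 39.3% of all genes. Satb1 was lowest on the same array. The part of these shifts in the small differences of the members was not tested.

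**Figure D4:**
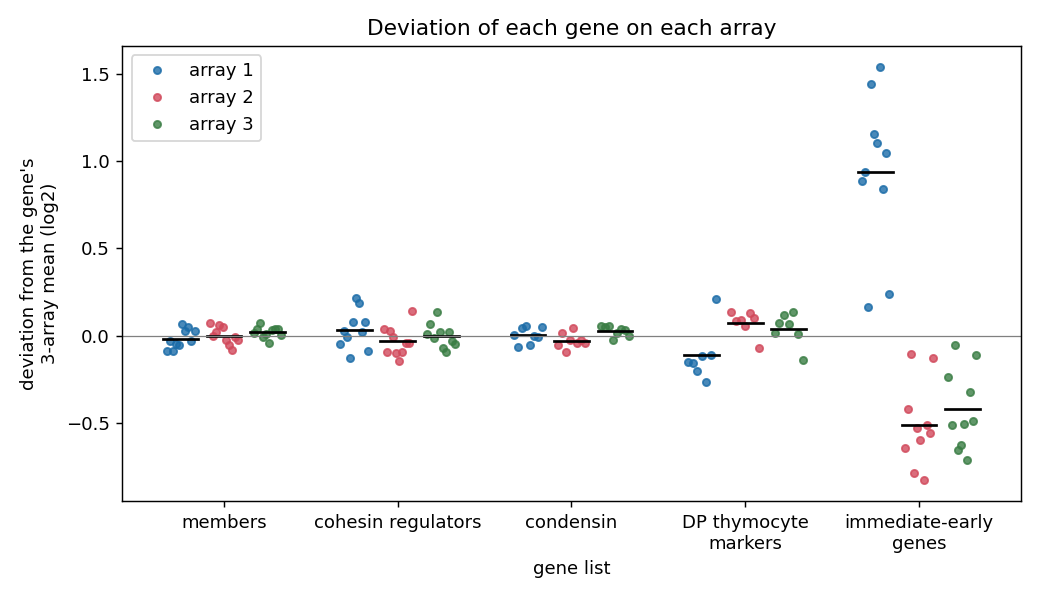
Deviation of each gene from its own 3-array mean (y axis, log2 units) on arrays 1, 2 and 3 (blue, red and green points, with a black bar at the list's mean) for the members, the cohesin regulators, the condensin genes, the DP markers and the immediate-early genes (x axis). The members stay within 0.09 of their means on every array, whereas the immediate-early genes average 0.93 on array 1.

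The cohorts also differed in sex-linked genes, which matters for the X-linked members Smc1a and Stag2. Xist, the noncoding RNA of the inactive X chromosome, had 11.65 on array 1, 5.40 on array 2 and 5.68 on array 3, and the Y-linked Eif2s3y had 4.21, 10.29 and 10.08. Kdm5d and Uty, also Y-linked, had 4.46 and 4.00 on array 1 and between 8.96 and 9.10 on the others. Beside this contrast, Smc1a was 0.08 log2 units lower on array 1 than the mean of the others and Stag2 was 0.07 higher, both within the size seen for autosomal members. Hdac8, an X-linked gene for the enzyme that removes the acetyl group from SMC3, had 8.80, 8.44 and 8.51, which is 0.33 higher on array 1, and did not pass the limma variance test (adjusted p = 0.988). With array 1 alone carrying this pattern, sex and cohort cannot be told apart.

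Genes that regulate cohesin were all expressed. All 10 of the list lay above background on every array, against 41.1% of all genes, and 0 of 10 were called by the limma variance test, where 0 also had an unadjusted p under 0.05. Wapl, which releases cohesin from DNA, had 10.66 ± 0.05, Mau2, the partner of Nipbl, had 10.61 ± 0.02, and Pds5b, the paralogue of Pds5a, had 10.19 ± 0.08 (n = 3 each). The acetyltransferase genes Esco1 and Esco2 had 8.92 ± 0.13 and 8.82 ± 0.09. Genes that act at S phase and mitosis were detected too: Cdca5, whose product sororin protects acetylated cohesin, had 9.41 ± 0.16, Sgo1, the centromere protector, had 8.78 ± 0.03, Espl1, which encodes separase, had 8.68 ± 0.07, and Pttg1, its inhibitor securin, had 8.20 ± 0.12. The widest spread was that of Hdac8, with an SD of 0.19. In these samples the proliferation markers Pcna, Mcm2, Mcm5, Mcm6, Mki67, Top2a and Rrm2 were also all above background, at means of 10.13 to 12.23. The share over all genes was again 41.1%, and Ccnb1, also listed, was not analysed here. For Top2a this holds for the brighter probe set, since the other, with 7.18, 7.04 and 7.37, was below the limit on every array.

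The germline forms of the same complex were not detected. Smc1b, Rec8, Stag3 and Rad21l, which replace Smc1a, Rad21, the STAG subunits and Rad21 in meiotic cohesin, and Ctcfl, the testis paralogue of Ctcf, were below the limit on every array, 0 of 5 exceeding it on any. Smc1b had 4.56, 4.70 and 4.69, Rec8 had 6.45, 6.37 and 6.35, and Stag3 had 6.30, 6.75 and 6.59. Ctcfl had 5.70, 5.80 and 5.88, and the brighter of the probe sets for Rad21l had 3.75, 4.00 and 4.10. Bcl11a, the paralogue of Bcl11b known from B cells and early progenitors, had 6.36, 6.96 and 6.91, also below the limit on each array. It was lowest on array 1 and did not pass the limma variance test (adjusted p = 0.988, unadjusted p = 0.0404).

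Genes for proteins that work with CTCF and cohesin at promoters and boundaries were likewise above background, 6 of 6 measured. The share over all genes was 41.1%, and Zfp143 was not analysed here. Yy1, a zinc finger protein that bridges promoters and enhancers, had 11.06, 10.98 and 10.95. Ldb1, which dimerizes to join enhancers with promoters, had 11.09, 11.38 and 11.24, and Top2b, a topoisomerase found at loop anchors, had 10.97, 11.11 and 11.19. Maz and Chd8, a zinc finger factor and a remodeller reported to act with CTCF, had 10.72 ± 0.06 and 10.15 ± 0.06. Brd2, a reader of acetylated histones, had 11.35, 10.93 and 10.93, the widest spread of the list, and was 0.42 log2 units higher on array 1. It did not pass the limma variance test (adjusted p = 0.988).

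Condensin, the SMC complex that compacts mitotic chromosomes, was expressed as well. All 8 condensin genes lay above background on each array, against 41.1% of all genes. Smc2 had 9.50, 9.44 and 9.55, Smc4 had 11.54, 11.62 and 11.65, and Ncaph had 9.89, 9.75 and 9.90. Their median SD was 0.049, beside 0.053 for the members and 0.088 for the cohesin regulators. The difference between these lists in spread was not tested.

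**Figure D5:**
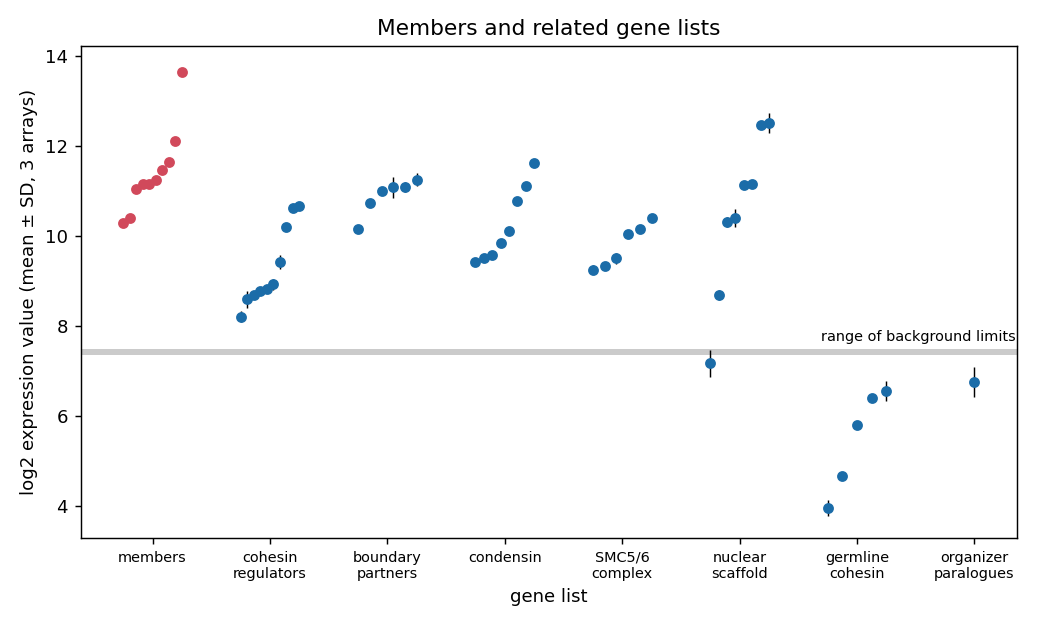
Mean log2 expression value of each gene over 3 arrays (y axis, points with SD bars, many smaller than the point) for the members (red) and 7 related gene lists (blue, x axis), sorted within each list, with the range of the background limits as a grey band. The somatic lists lie above the band except Lmna of the nuclear scaffold, and the germline cohesin genes and Bcl11a lie below it.

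Genes reported in knockout studies to depend on Satb1 in thymocytes were mostly expressed, as background to its level here. Of 7 (Rag1, Rag2, Cd4, Cd8a, Cd8b1, Zbtb7b and Runx3), 6 exceeded the limit on each array, against 41.1% of all genes. Zbtb7b was below the limit throughout with 7.08, 6.83 and 6.87. Rag1, Cd4, Cd8a and Cd8b1 are also DP markers, and the cells were sorted by CD4 and CD8. The count is therefore not read as a result about Satb1. Runx3 cleared the limit by only 0.02 on array 2, and with the 99th percentile as the limit 5 were above. Rag2 had 8.69, 9.51 and 9.54, lower on array 1 than the mean of the others by 0.84 log2 units, the largest fall of the 7 (limma variance test, adjusted p = 0.861). Satb1 was lower there by 0.13 on the same measure. Of the 7 genes, 5 were lowest on array 1 and 2, Zbtb7b and Runx3, were highest there, against 39.3% and 34.5% of all genes. Whether these differences are related to Satb1 was not tested.

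The list of innate lymphocyte genes reported to rise when Bcl11b is lost has 6 members. Only Id2, an antagonist of E proteins, lay above background on all arrays, with 8.71, 8.05 and 8.27, against 41.1% of all genes. With 6 genes, no lack is read from this count. Zbtb16, which encodes PLZF, had 6.45, 6.27 and 5.94, and Ncr1, Klrd1 and Il2rb were likewise below the limit on each array. Nfil3 exceeded it on array 1 alone, with 8.26, 7.18 and 7.28. All 6 were highest on array 1, against 34.5% of all genes, a pattern seen before they were picked for naming. Of the 6, 4 lay below the limit on every array, where the order of arrays says little. None was called by the limma variance test (3 of 6 at an unadjusted p under 0.05). Bcl11b itself was 0.05 log2 units lower on array 1, with a range of 0.07, and a link to these genes was not tested. Markers of other cells also differed on array 1, and their part in these values was not tested.

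The 5 NK and innate markers share Ncr1 and Klrd1 with that list. Of the 5, 1 (Gzma) was above background on all arrays, with 8.61, 8.08 and 8.18, against 41.1% of all genes. Prf1, with 7.24, 7.61 and 7.67, exceeded the limit on arrays 2 and 3 and was lowest on array 1. The list's summed linear signal was 662, 545 and 577, with Gzma its brightest gene. Of 6 myeloid and dendritic markers, H2-Ab1 alone was above background on all arrays, with 9.26, 7.91 and 8.50. Cd74, its invariant chain partner, exceeded the limit on 2 arrays with 8.83, 7.27 and 8.05. Both were highest on array 1 and not called by the limma variance test (adjusted p = 0.554 for H2-Ab1 and 0.5 for Cd74). Csf1r, Itgam, Itgax and Lyz2 were below the limit throughout. Itgam, with 6.75, 7.02 and 6.67, was highest on array 2, and Itgax, with 6.07, 5.66 and 6.20, on array 3. The list's summed signals were 1439, 726 and 984, most of which came from H2-Ab1 and Cd74, so the sums do not describe the dimmer markers. All 4 mature T cell markers measured were highest on array 1, against 34.5% of all genes, with summed signals of 1395, 938 and 1045. Klf2, a factor of T cells leaving the thymus, had 9.13, 8.43 and 8.41, and Il7r, the receptor lost at the DP stage and regained after it, had 8.02, 7.16 and 7.36. Of 4 early thymocyte markers, 3 were highest on array 1, beside the same 34.5% of all genes, with summed signals of 534, 394 and 414. None exceeded the limit on all arrays, and 3 lay below it on every array, where the order of arrays says little. Cd44, with 7.66, 6.84 and 7.05, exceeded the limit on array 1 alone. Cd79b was the only B cell marker of 4 above it, Cd79a, Ms4a1 and Pax5 being below, and the list's summed signals were 566, 565 and 600. Of 5 thymic epithelial markers, Foxn1, Psmb11 and Epcam were below the limit on every array, while the keratin genes Krt8, with 6.70, 6.83 and 7.55, and Krt18, with 6.87, 6.90 and 7.58, exceeded it on array 3. All 5 were lowest on array 1, against 39.3% of all genes, with summed signals of 477, 542 and 716. Of the 5, 3 lay below the limit on every array, where the order of arrays says little. Of the stromal and endothelial markers 2 of 5 were above background on all arrays, and of the erythroid markers 0 of 2.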

How the data were processed

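Values were 1 per probe set and array for 3 DP thymocyte samples. The authors' deposited values are log2 expression values, rounded to 2 decimals, a unit read from their range of 1.6 to 14.94. affy is the software listed in the submitters' processing notes. Its version, its settings and a genome build were not stated there. The arrays have nearly the same quartiles (5.39 to 5.41 and 8.62 to 8.64), so a global change in RNA content would not be visible. The protocol text describes fixation before the sort without saying whether the RNA samples were fixed.

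Symbols are those of the platform's annotation table. Of 35556 probe sets, 21789 have 1 symbol. A gene with several was represented by the brightest. The 6617 probe sets numbered below the first annotated one were treated as controls and left out of the test. limma 3.58.1 in R 4.3.3 fitted an intercept to 28939 probe sets and compared each variance with a robust level-dependent prior (F test, Benjamini-Hochberg). The procedure was also run on data simulated from that same prior, which checks the code and not whether the prior suits these arrays. The background list of 89 genes was written for this work; 4 of the 89 lay above their own limit on all arrays. Counts, medians and motif searches were made in Python 3.11.15 with pandas 2.3.3. Promoter windows are RefSeq's.

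The members and lists were chosen with earlier results of these data known. Named were all members, the listed members of the regulator, germline, paralogue, partner and Satb1 lists, the first 3 of the condensin, SMC5/6 and scaffold lists with members on the minority side of the limit, defining markers, and sex-linked references. The innate list of Bcl11b was fixed with the others, but naming its genes fell outside this rule and was decided after their values were seen. A planned comparison of protein sequences was not run. The promoter motifs, the CpG measure and the counts by SD were added after the values were seen. Likeness of pattern to other genes was not computed, since 3 arrays are too few points. With 3 arrays, each SD is imprecise.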

Additional observations from a re-analysis of the deposited data

How the results depend on the processing

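The values were recomputed after quantile normalization, with arrays centred on their medians, without each array in turn, with other limits of background, with another probe set rule and, for the variance test, other priors, a filter on dim probe sets and keeping the control block. Each member has 1 probe set, so the probe set rules could not change a member's value, and centring could not change a 3-array mean or a difference within an array. These settings say nothing on stability there. Under the other limits, quantile normalization and without each array, 10 members stayed above background, with the median of the members between 11.19 and 11.23. Without each array in turn, Smc3 minus Smc1a was 0.06 to 0.16, against 0.12 with an SD of 0.10, the lowest being without array 1. The limma variance test called 0 members under each of its 9 alternatives, with 0 at an unadjusted p under 0.05 and the lowest member p at 0.244 (without array 1). The calls over all probe sets moved: 6 as reported, 18 without array 1, 3 with a prior that was not robust, and 0 without array 2, without array 3, without a trend, with the dim filter or with the control block, where an unadjusted p under 0.05 was found for 1120, 1013, 1157, 548 and 1798. The count of members highest on array 1 was 2 to 4, against 3 as reported, and that of members with an SD below the level's prior was 9 or 10. With 3 arrays, none of these settings narrows the error.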

Other observations

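Other large nuclear complexes were also expressed in these cells. All 6 genes of the SMC5/6 complex, which acts in DNA repair, lay above background on each array, against 41.1% of all genes. Smc5 had 10.32, 10.45 and 10.38, Smc6 had 10.19, 10.13 and 10.13, and Nsmce1, a RING subunit, had 9.32, 9.31 and 9.32. Of 8 nuclear scaffold genes, 7 lay above background on all arrays, beside the same 41.1% of all genes. Lmnb1 and Lmnb2, the B-type lamins, had 11.21, 11.11 and 11.08, and 8.79, 8.57 and 8.67. Lmna, the A-type lamin gene, exceeded the limit on array 1 alone, with 7.50, 7.01 and 6.97, by 0.15 log2 units. Lbr, the receptor that tethers heterochromatin to the lamina and was chosen after its values were seen, had 12.26, 12.67 and 12.60, lowest on array 1. None of these genes was called by the limma variance test, where 0 of 6 and 0 of 8 had an unadjusted p under 0.05. The probe sets of Safb2, also chosen after its values were seen, differed: the brighter was lowest on array 1, with 10.19, 10.41 and 10.33, and the other highest there, with 8.51, 7.90 and 7.82, so no direction is given for that gene.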
